A study of Mus musculus with 11 samples.

Results

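The 10 miRNAs described here are mature miRNAs known chiefly from liver, muscle and blood: mmu-miR-122-5p of liver, mmu-miR-206-3p, mmu-miR-133a-3p and mmu-miR-1a-3p of skeletal and cardiac muscle, mmu-miR-143-3p of smooth muscle, and mmu-miR-142a-3p, mmu-miR-150-5p, mmu-miR-486a-5p, mmu-miR-451a and mmu-miR-223-3p of blood cells (the species prefix mmu- is left out below). They were chosen by name, as tissue-restricted miRNAs whose reads in a stem cell library could be a background, and are 10 of the 1966 mature miRNAs in the deposited count table. The 11 small RNA libraries came from mouse embryonic stem cells, grown without feeder cells in 2i medium with LIF and fetal calf serum, and all carried 1 strain label. The 3 KO libraries (genotype DGCR8 -/-, not transfected, 300 ng/mL doxycycline for 48 h) are all labelled clone 261, although the series text speaks of independent clones, and whether they are separate cultures is not stated. The 3 E518K libraries (DGCR8 E518K/E518K, clones 8, 13 and 15) carried the vector pSB ET iE-FlagDGCR8-E518K and had the same doxycycline treatment, and E518K clone 8 was also sequenced untreated. The 3 wild-type (WT) libraries (DGCR8 wt/wt, clones 10, 12 and 16) carried pSB ET iE-FlagDGCR8-wt and were treated alike, and WT clone 10 was also sequenced untreated. The series text says that the untreated libraries serve to assess leaky expression, that is, expression without doxycycline. Both vectors were brought in together with pCMV(CAT)-SB100X, a transposase plasmid, so that the KO differs from the other groups in transfection as well as in DGCR8, and the effects of these cannot be told apart. KO, E518K and WT stand below for the doxycycline-treated groups.

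DGCR8 binds RNA hairpins for the nuclease Drosha, and together they cut most primary miRNA transcripts into hairpins, which Dicer then cuts into mature miRNAs. A few miRNAs bypass this step, among them miR-320 and miR-484, and are called DGCR8-independent here. miR-451a needs Drosha and DGCR8 but is not cut by Dicer: its short hairpin is loaded into Ago2 and sliced there. In adult tissues miR-122 dominates the hepatocyte, miR-1, miR-133a and miR-206 the muscle fibre, and miR-142, miR-150, miR-223, miR-451 and miR-486 different blood lineages.

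The RefSeq table for GRCm38.p6 held the mature sequences of 4 of the 10 miRNAs. They are shown with that of the other arm of the miR-142a hairpin, because the balance of its arms is compared below, and with bases 2 to 8, the seed, in capitals.
miR-206-3p: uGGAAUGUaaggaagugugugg
miR-142a-3p: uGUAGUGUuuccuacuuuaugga
miR-142a-5p: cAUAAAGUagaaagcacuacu
miR-223-3p: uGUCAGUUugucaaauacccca
miR-451a: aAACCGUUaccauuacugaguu
The 4 seeds of the members shown differ from each other, so that these miRNAs belong to 4 seed families. The Mir451a hairpin is shown because its mature miRNA, in capitals at positions 17 to 38, runs across the loop, which is the feature that goes with slicing by Ago2.
Mir451a hairpin: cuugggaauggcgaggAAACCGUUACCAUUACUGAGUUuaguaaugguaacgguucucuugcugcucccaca

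On GRCm38.p6, Mir206 lies on chromosome 1 (20679010 to 20679082, plus strand) in an exon of the lincRNA Gm28653, and Mir142 on chromosome 11 (87756864 to 87756927, plus strand) in an intron of Mir142hg. Mir451a is also on chromosome 11 (78073170 to 78073241, plus strand), Mir150 on chromosome 7 (45121757 to 45121821, plus strand), Mir486 in an intron of Ank1 on chromosome 8 (23142555 to 23142682, plus strand) and Mir223 on chromosome X (96242817 to 96242926, plus strand). Mir122 and Mir143 lie on chromosome 18. miR-1a-3p and miR-133a-3p each have 1 hairpin on chromosome 2 and 1 on chromosome 18. How strand was treated in the counting is not given, and 4 members had counts tied to those of another listed miRNA. miR-122-5p had the same counts as miR-122b-3p, miR-486a-5p the same as miR-486b-3p, miR-142a-3p the same as miR-142b within 2%, and miR-1a-3p had in every library 2 times the count of miR-1b-5p. The values of these 4 members cannot be told apart from those of their partners.

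The total miRNA counts were 208846, 166676 and 169316 in KO replicates 1 to 3, 1797240, 1050564 and 1418587 in E518K clones 8, 13 and 15, and 3394216, 6128734 and 5933843 in WT clones 10, 12 and 16. They were 264507 in untreated E518K and 1421247 in untreated WT. The mean total was thus 28.4-fold lower in KO and 3.62-fold lower in E518K than in WT, and equal member counts in all groups would give shares that much higher. These totals hold miRNA counts only. The authors' scaled RPM unit, pRPM, has miRNA totals of unstated origin. Read as parts of 1000000, they imply 1960747 to 2456827 counts in whole KO libraries, 1537090 to 2629558 in E518K and 3616658 to 6530384 in WT. The miRNAs that mark embryonic stem cells (miR-290 to miR-295 and the miR-302-367 cluster) held 0.127% to 0.373% of the counts in KO, 15.7% to 18.0% in E518K, 1.43% in untreated E518K, 34.4% to 39.6% in WT and 32.0% in untreated WT. Most small counts were even, including 63 of the 73 non-zero counts of the members, and a floor of 3 small RNAs, taken at 2 counts each, was therefore set at 6 counts. Shares of single miRNAs are given as CPM, the count divided by the library's total of miRNA counts and scaled to 1000000. The floor is 28.7 to 36.0 CPM in KO, 3.34 to 5.71 in E518K and 0.979 to 1.77 in WT. In pRPM it is 2.44 to 3.06 in KO, 2.28 to 3.90 in E518K and 0.919 to 1.66 in WT. Results said below to be set by the floor are judged in CPM alone.

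As a group the 10 miRNAs held a larger share of the KO libraries and a smaller share of the E518K libraries than of WT. Their summed share of the miRNA counts was 0.893%, 1.16% and 0.895% in KO, 0.0749%, 0.0690% and 0.0704% in E518K, and 0.263%, 0.155% and 0.238% in WT. The 3 groups did not overlap, with means of 0.981% ± 0.152 in KO, 0.0714% ± 0.0031 in E518K and 0.219% ± 0.0566 in WT (SD, n = 3 each). The raw sums ran in another order: 1864, 1927 and 1515 counts in KO, 1346, 725 and 999 in E518K, and 8921, 9496 and 14148 in WT. KO libraries thus had fewer of these reads than WT libraries, by 6.14-fold in the mean, while the total was 28.4-fold lower.

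This sum was mostly miR-143-3p. Without it, the other 9 miRNAs had 80, 105 and 55 counts in KO, 504, 340 and 280 in E518K, and 571, 694 and 1691 in WT. Their mean share was 0.0446% in KO, 0.0267% in E518K and 0.0189% in WT, and the E518K and WT libraries overlapped. Behind this sum single members went in opposite directions, as the map of counts by library shows.

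**Figure D1:**
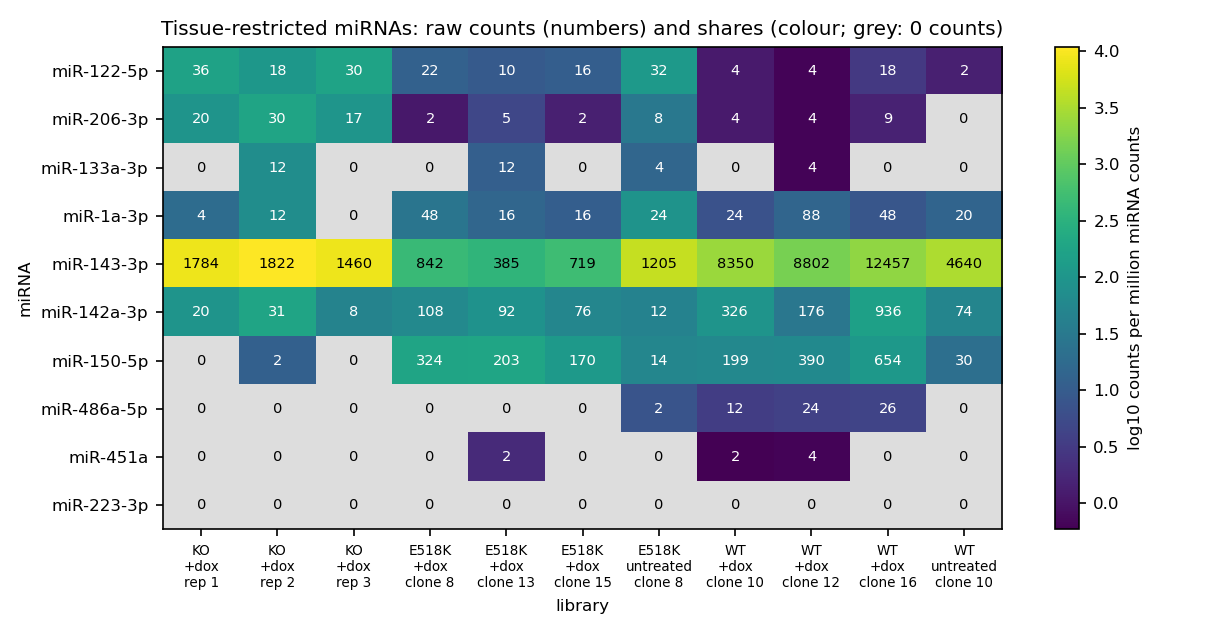
Raw counts (numbers in the cells) of the 10 tissue-restricted miRNAs (rows) in the 11 libraries (columns), coloured by log10 CPM, with grey for 0 counts. miR-122-5p and miR-206-3p had 17 to 36 counts in the KO libraries, where miR-150-5p had 2 counts in all, and miR-223-3p was at 0 in all 11 libraries.

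miR-122-5p, the main miRNA of hepatocytes, had more raw counts in the mean in the KO libraries, whose miRNA totals were small, than in the WT libraries. It had 36, 18 and 30 counts in KO, 22, 10 and 16 in E518K, and 4, 4 and 18 in WT. The KO and WT counts met at 18, and the mean was 3.23-fold higher in KO. As CPM this became 172, 108 and 177 in KO, 12.2, 9.52 and 11.3 in E518K, and 1.18, 0.653 and 3.03 in WT. The 3 groups were apart on that scale, with a mean 94.1-fold higher in KO and 6.79-fold higher in E518K than in WT. WT clones 10 and 12, with 4 counts each, were under the floor of 6 counts. The sizes of both folds are therefore uncertain for miR-122-5p. By edgeR's quasi-likelihood test with TMM (trimmed mean) scaling and Benjamini-Hochberg adjustment over the 730 miRNAs tested, it rose in KO (log2 change 4.97 ± 0.61 SE, adjusted p = 4.97e-15) and in E518K (2.46 ± 0.60, adjusted p = 0.00015) against WT. The KO value was 4.26 without KO replicate 1, 5.85 without KO replicate 2 and 5.64 without WT clone 16, and the E518K value was 3.69 without WT clone 16, which held 18 of the 26 WT counts.

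miR-206-3p, a skeletal muscle miRNA related to miR-1, was higher in KO than in WT, while E518K and WT overlapped. It had 20, 30 and 17 counts in KO, 2, 5 and 2 in E518K, and 4, 4 and 9 in WT. All KO libraries lay above all others. As CPM it had 95.8, 180 and 100 in KO, 1.11, 4.76 and 1.41 in E518K, and 1.18, 0.653 and 1.52 in WT. E518K and WT overlapped on this scale too, and the mean was 112-fold higher in KO than in WT. WT clones 10 and 12 and all E518K libraries were under the floor of 6 counts. The size of the KO fold over WT is therefore uncertain for miR-206-3p. It rose in KO (log2 change 5.19 ± 0.66, edgeR adjusted p = 3.45e-14; 5.90 without KO replicate 3 and 5.78 without WT clone 10). In E518K the value was 0.60 ± 0.82 (adjusted p = 0.53).

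The other muscle miRNAs were carried by few reads. miR-133a-3p, which is made with miR-1 in muscle, had 12 counts in KO replicate 2, 12 in E518K clone 13, 4 in untreated E518K and 4 in WT clone 12, and 0 in the other 7 libraries. Its counts were all multiples of 4, and it has 2 hairpins. Counted 4 times per small RNA, it would exceed the floor of 3 small RNAs in no library. It passed the test in KO (4.59 ± 1.31, adjusted p = 0.00079) and in E518K (2.82 ± 1.27, adjusted p = 0.044), but each call rests on 1 library. Without KO replicate 2 the KO value was −2.58 (adjusted p = 0.7), and without E518K clone 13 the E518K value was −2.50 (adjusted p = 0.432). The E518K call was also lost without WT clone 10 (adjusted p = 0.138) or clone 16 (0.105), and with WT clone 12, the only WT library with reads, left out the values were 7.38 in KO and 5.03 in E518K.

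miR-1a-3p, the most abundant miRNA of the heart, had 4, 12 and 0 counts in KO, 48, 16 and 16 in E518K, and 24, 88 and 48 in WT. The KO counts were below the WT counts in every library, by 10.0-fold in the mean, while E518K and WT overlapped. All 10 of its non-zero counts were multiples of 4. If each small RNA was counted 4 times, no KO library was above the floor of 3 small RNAs. The mean CPM was 30.4 ± 37.3 in KO, 17.7 ± 8.01 in E518K and 9.84 ± 3.95 in WT (SD, n = 3 each), and the groups overlapped. The fitted change was −0.12 ± 0.63 in KO (adjusted p = 0.85) and 0.38 ± 0.52 in E518K (adjusted p = 0.52). The KO value passed the threshold in opposite directions with total counts (1.59, adjusted p = 0.0391) and with the authors' pRPM scaling (−1.85, adjusted p = 0.0107).

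miR-143-3p, a smooth muscle miRNA, was the most abundant member by far. It had 1784, 1822 and 1460 counts in KO, 842, 385 and 719 in E518K, and 8350, 8802 and 12457 in WT. The 3 groups were apart, with E518K lowest, KO next and WT highest. In CPM the order changed to 8542, 10931 and 8623 in KO, 468, 366 and 507 in E518K, and 2460, 1436 and 2099 in WT. The raw mean was 5.84-fold lower in KO than in WT and the mean share 4.69-fold higher. In E518K both scales were lower than WT, by 15.2-fold in raw counts and 4.47-fold in share. In the fit the E518K value was −2.51 ± 0.39 (adjusted p = 2.46e-09; −1.88 without WT clone 16). For KO it was 0.60 ± 0.37 (adjusted p = 0.12), which passed the test at 1.26 without KO replicate 2, 1.33 without KO replicate 3, 1.43 without WT clone 10 and 1.17 without WT clone 12, and at 2.23 with total counts as scaling. It turned to −1.24 with the authors' pRPM scaling (adjusted p = 0.00441).

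The other products of this locus made up a smaller part of its counts in KO than in WT. miR-143-5p, the other arm of the hairpin, had 0, 2 and 0 counts in KO, 6, 2 and 4 in E518K, and 32, 57 and 98 in WT. As a share of both arms' counts, summed over the libraries, it made up 0.0395% in KO (95% interval 0.000999 to 0.220), 0.613% in E518K (0.225 to 1.33) and 0.628% in WT (0.510 to 0.772; exact binomial, counting error only). Untreated, miR-143-5p made up 0% in E518K (0 to 0.611) and 0.215% in WT (0.0699 to 0.501), so low parts were seen outside KO as well. Its WT level of 9.43, 9.30 and 16.5 CPM is below the floor of the KO libraries, so no change in KO is given on that scale. In pRPM the KO libraries all lay below the WT libraries. In E518K the fitted change against WT was −2.38 ± 0.69 (adjusted p = 0.0013), a call lost without WT clone 16 (−1.64, adjusted p = 0.116). The E518K counts were all at or under the floor of 6, so the size of that change is uncertain. miR-145a-5p, made from the same transcript, had 16, 14 and 6 counts in KO, 6, 3 and 10 in E518K, and 182, 322 and 369 in WT. In raw counts WT stood apart from both other groups. In CPM the KO and WT libraries overlapped, with a KO mean 1.16-fold that of WT. Of the summed counts of miR-143-3p and miR-145a-5p, the latter made up 0.706% in KO, 0.967% in E518K and 2.86% in WT. Untreated, it made up 1.31% in E518K and 0.472% in WT, so a low part was not particular to KO. The fitted change was −1.42 ± 0.53 in KO (adjusted p = 0.0088) and −3.99 ± 0.58 in E518K (adjusted p = 1.25e-10). The E518K value was −4.63 without E518K clone 15 and −3.38 without WT clone 16. The KO call for miR-145a-5p was lost without KO replicate 2 (adjusted p = 0.252), KO replicate 3 (0.515), WT clone 10 (0.267) or WT clone 12 (0.354), its value was −2.16 without KO replicate 1, and it turned to 0.22 with total counts.

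The leukocyte miRNAs miR-150-5p and miR-142a-3p had far fewer counts in KO than in the other groups. miR-150-5p, of mature lymphocytes, had 0, 2 and 0 counts in KO, 324, 203 and 170 in E518K, and 199, 390 and 654 in WT. E518K and WT overlapped, and all KO libraries were below the floor of 6 counts. It was lower in KO (log2 change −5.91 ± 0.78, adjusted p = 3.25e-13), a size set by 2 counts, with −10.53 without KO replicate 2 and −4.79 without KO replicate 3. In E518K the share was higher, with 180, 193 and 120 CPM in E518K against 58.6, 63.6 and 110 in WT, and the groups did not overlap. The fitted change there was 0.71 ± 0.43 (adjusted p = 0.14), and it passed at 1.47 without WT clone 16 (adjusted p = 0.0191) and at 0.77 with only these 2 groups in the fit (adjusted p = 0.0292).

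miR-142a-3p, made in most blood lineages, had 20, 31 and 8 counts in KO, 108, 92 and 76 in E518K, and 326, 176 and 936 in WT. Each KO library was below each E518K library, and these below each WT library. In CPM the groups overlapped, with 95.8, 186 and 47.2 in KO, 60.1, 87.6 and 53.6 in E518K, and 96.0, 28.7 and 158 in WT. It was lower in KO (log2 change −1.28 ± 0.48, adjusted p = 0.0097), a call lost when KO replicate 2 (adjusted p = 0.0817), KO replicate 3 (0.545), WT clone 10 (0.256), WT clone 12 (0.0817) or WT clone 16 (0.14) was left out; without KO replicate 1 the value was −1.85, and with total counts it turned to 0.22 (adjusted p = 0.719). In E518K it was at −0.79 ± 0.45 (adjusted p = 0.11) and at 0.22 without WT clone 16.

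The balance between the arms of miR-142a, whose sequences are given above, lay further to the 5p arm in induced E518K than in induced WT, while the 2 untreated libraries stood the other way round. miR-142a-5p had 0, 0 and 2 counts in KO, 248, 179 and 65 in E518K, and 136, 65 and 535 in WT. The 5p arm made up 69.7%, 66.1% and 46.1% of both arms' counts in E518K clones 8, 13 and 15, against 29.4%, 27.0% and 36.4% in WT clones 10, 12 and 16. The E518K libraries all lay above the WT libraries, with means of 60.6% ± 12.7 in E518K and 30.9% ± 4.87 in WT (SD, n = 3 each). Untreated, the 5p arm made up 14.3% in E518K clone 8, from 2 counts of the 5p and 12 of the 3p arm (95% interval 0.361 to 57.9), and 43.9% in WT clone 10, from 58 and 74 counts (31.7 to 56.7), which is above every induced WT library. For the induced groups a two-sided exact permutation test gave p = 0.1, the smallest that 3 against 3 allows, and 0.3 after Benjamini-Hochberg adjustment over the 3 hairpins compared. The minor arm of miR-150 held 10.7% ± 2.98 in E518K and 6.56% ± 2.98 in WT (exact permutation p = 0.3), and that of miR-143 0.593% ± 0.101 in E518K and 0.602% ± 0.203 in WT (exact permutation p = 1). The KO counts of miR-142a-5p are all under the floor, and WT clone 12, at 10.6 CPM, lies below the KO floor too, so no change in KO is given in CPM. In pRPM the KO libraries all lay below the WT libraries. In E518K the fitted change was 1.02 ± 0.46 (adjusted p = 0.044). That call was lost without E518K clone 8 (adjusted p = 0.337), E518K clone 13 (0.24), WT clone 10 (0.337) or WT clone 12 (0.644), with DESeq2 (0.336), with pRPM (0.156), with no filter on low counts (0.0524) and with only these 2 groups in the fit (0.0785), and the value was 2.19 without WT clone 16 and −1.76 with the DGCR8-independent list as scaling.

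**Figure D2:**
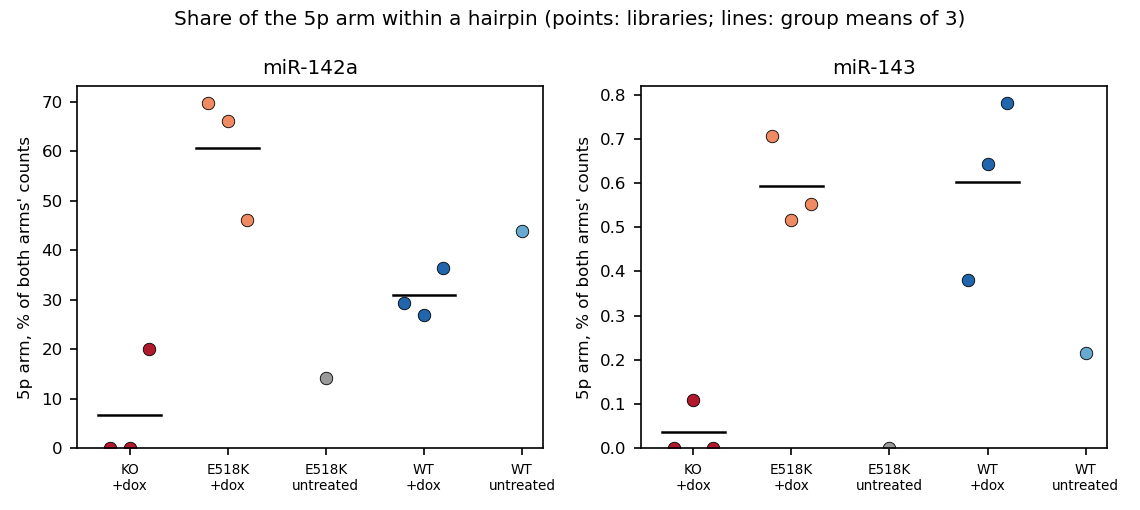
Share of the 5p arm in the summed counts of both arms of the miR-142a hairpin (left) and the miR-143 hairpin (right), in percent, by group; points are libraries and lines are means of 3. The E518K points lie between 46.1% and 69.7% for miR-142a, above the WT points at 27.0% to 36.4%, while for miR-143 the E518K and WT points overlap below 1%.

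The erythroid and myeloid miRNAs were at or near the limit of detection. miR-451a, the red-cell miRNA that is cut by Ago2, had 2 counts in E518K clone 13, 2 in WT clone 10 and 4 in WT clone 12, and 0 in the other 8 libraries, KO included. Every one of these counts is below the floor of 6, so that no level and no difference can be given, and it did not pass the filter on low counts. Its neighbour miR-144-3p, made from the same transcript but cut by Dicer, had 2 counts in E518K clone 8 and 0 elsewhere. The other arm of that hairpin, miR-144-5p, had 8 counts in E518K clone 13, 4 in WT clone 16 and 0 elsewhere, so that only 1 library exceeded the floor and no contrast between the Dicer route and the Ago2 route can be drawn at this depth.

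miR-486a-5p, also of red cells and muscle, had 0 counts in the 3 KO and the 3 E518K libraries and 12, 24 and 26 counts in WT, with 2 in untreated E518K and 0 in untreated WT. Only the induced WT libraries exceeded the floor. WT held 3.54, 3.92 and 4.38 CPM, which is less than the 28.7 to 36.0 CPM that 0 counts allow in a KO library and within the 3.34 to 5.71 they allow in an E518K library, so no fold can be given in CPM. In pRPM WT held 3.32, 3.68 and 4.11, above the KO floor of 2.44 to 3.06 but overlapping the E518K floor of 2.28 to 3.90. It passed the low-count filter through the WT libraries alone, and its adjusted p under 0.05 in both comparisons is not read as a lower level. miR-223-3p, of neutrophils and monocytes, had 0 counts in all 11 libraries, as did its other arm.

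In KO against WT, 6 of the 8 tested members passed the test, beside 88.4% of all 730 tested miRNAs. Of the 8, 3 were higher (miR-122-5p, miR-206-3p and miR-133a-3p), beside 30.0% of all tested, and 3 were below 0 past the threshold (miR-142a-3p, miR-150-5p and miR-486a-5p), beside 58.4%. For miR-486a-5p this is set by the floor: all KO counts are at or under 6, and the lowest WT level in CPM does not exceed the highest KO floor in CPM. Without such cases 2 members were lower, beside 30.7% of all tested. The split depended on the scaling, with 5 members higher and 1 lower with total counts, 3 higher and 5 lower with pRPM, 2 higher and 2 lower with DESeq2, and 0 higher and 5 lower with the DGCR8-independent list described below, each count of lower members taken without the floor rule. Their median log2 change was 0.24, beside −3.54 over all tested miRNAs, and 0.60, the value of miR-143-3p, without miR-486a-5p, which was at 0 in KO. The −3.54 includes miRNAs set by the floor, 202 of them lower calls, so the 0.60 has no like value beside it. For 4 of the 8, miR-486a-5p among them, the TMM-scaled levels of the groups did not overlap, beside 84.9% of all tested. miR-451a and miR-223-3p were too low to test.

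In E518K against WT, 4 of 8 members passed, beside 63.6% of all tested. Among them 2 were higher (miR-122-5p and miR-133a-3p), beside 28.2%, and 2 below 0 past the threshold (miR-143-3p and miR-486a-5p), beside 35.3%. miR-486a-5p is again set by the floor, which leaves miR-143-3p as the only lower member, beside 28.1% of all tested by the same rule. The median change of the 8 was 0.49, beside −0.14 over all tested, and 0.60, the value of miR-206-3p, without miR-486a-5p. The −0.14 likewise includes miRNAs set by the floor, 53 of them lower calls. For 4 of the 8, miR-486a-5p among them, the groups did not overlap, beside 64.5%. Both comparisons use the same WT libraries, and the low-count filter passes a miRNA that is high in any 1 group.

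Of the other tissue-restricted miRNAs, none that was tested passed as higher in either comparison with TMM scaling. Of 20 further miRNAs of blood, vessel, muscle, heart, liver, gut and pancreas, 11 were tested in each comparison. In KO 9 were below 0 past the threshold and 0 higher, beside 58.4% and 30.0% of all tested, but 4 of the 9 (miR-126a-5p, miR-145a-3p, miR-146a-5p and miR-155-5p) were set by the floor. The other 5 lower ones (miR-126a-3p, miR-145a-5p, miR-192-5p, miR-194-5p and miR-499-5p) stand beside 30.7% of all tested. In E518K 7 were lower and 0 higher, beside 35.3% and 28.2%, with 0 of the 7 set by the floor. Their median log2 change was −2.45 in E518K, and none is given for KO, where several of them were at 0 counts. miR-192-5p, of liver and gut, had 12, 3 and 10 counts in KO, 22, 8 and 8 in E518K, and 1498, 2424 and 2596 in WT. WT was far above both, with a change of −4.89 ± 0.51 in KO (edgeR adjusted p = 9.4e-20) and −6.02 ± 0.52 in E518K (adjusted p = 5.9e-27). The KO value ran from −5.69 without KO replicate 1 to −3.73 without KO replicate 2, with −4.14 without WT clone 10 and −4.09 without WT clone 12.

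The endothelial miR-126a-3p had 0 counts in all KO libraries, 84, 56 and 55 in E518K, and 996, 1911 and 2485 in WT. Its mean WT level of 341 CPM was 10.2-fold above the mean KO floor of 33.4 CPM. Single libraries can give a smaller factor. The cardiac miR-499-5p, from an intron of a myosin gene, likewise had 0 counts in KO, 183, 163 and 131 in E518K, and 674, 1978 and 1996 in WT. Its mean WT level was 8.56-fold above the mean KO floor. In E518K the changes were −3.28 ± 0.44 for miR-126a-3p and −1.75 ± 0.41 for miR-499-5p, and −2.63 and −1.14 without WT clone 16. These 2 miRNAs had 0 counts in the KO libraries, where miR-122-5p and miR-206-3p had 17 to 36.

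Of the 16 other arms and near-identical copies of the members, 8 were tested. In KO 7 were below 0 past the threshold and 0 higher, beside 58.4% and 30.0% of all tested, but 6 of the 7 were set by the floor. The remaining one, miR-142b, only repeats the reads of miR-142a-3p. In E518K 4 were below 0, of which 3, all from the miR-486 locus, were set by the floor and 1 (miR-143-5p) was not, and 2 were higher (miR-142a-5p and miR-150-3p), beside 35.3% lower and 28.2% higher of all tested. The E518K call of miR-150-3p (1.53 ± 0.58, adjusted p = 0.015) was lost without E518K clone 15 (adjusted p = 0.0688), WT clone 10 (0.0724) or WT clone 12 (0.155), with DESeq2 (0.151) and with pRPM (0.0599), and the value was −1.21 with the DGCR8-independent list as scaling. The most abundant were miR-142b, which counts the reads of miR-142a-3p, miR-142a-5p, and miR-1b-5p, which shares reads with miR-1a-3p. The other arms of miR-122, miR-206 and miR-133a were at 0 counts in every library, so that the members that rose in KO were seen by 1 arm only.

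Set beside DGCR8-independent miRNAs, which do not need the missing protein, miR-122-5p had overlapping levels in the 3 genotypes. The 13 miRNAs of that list held 12.3%, 17.0% and 17.2% of the counts in KO, 1.18%, 1.63% and 0.902% in E518K, and 0.124%, 0.104% and 0.180% in WT. miR-320-3p, the best known of them, had 4966, 4941 and 4922 raw counts in KO, 3088, 2038 and 1524 in E518K, and 342, 757 and 904 in WT. miR-484 had 2098, 2722 and 3229 counts in KO, 4797, 4291 and 1693 in E518K, and 537, 1187 and 2198 in WT. Both therefore had more raw counts in the KO libraries than in the larger WT libraries, although for miR-484 the ranges overlapped, and with TMM scaling miR-320-3p changed by 6.16 ± 0.47 in KO (6.76 to 6.89 without KO replicate 2, KO replicate 3 or WT clone 12) and by 3.22 ± 0.41 in E518K (3.83 without WT clone 16).

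Per 10000 counts of that list, miR-122-5p had 10.2 ± 3.84 in KO, 9.58 ± 3.41 in E518K and 10.9 ± 5.44 in WT (SD, n = 3 each). The ranges overlapped throughout, from 6.35 to 14.0 in KO, from 5.83 to 12.5 in E518K and from 6.25 to 16.9 in WT. With the list as scaling in edgeR the KO value against WT was −0.16 (95% interval −1.43 to 1.11, adjusted p = 0.83) and the E518K value −0.26 (−1.57 to 1.05, adjusted p = 0.75). These intervals still allow changes of more than 2-fold either way, so equality is not shown. WT clones 10 and 12 had 4 counts of miR-122-5p each, under the floor of 6. The list was also not level in itself. Raw means of its members, KO over WT, ran from 0.333 (miR-320-5p, few counts) to 10.6 (miR-877-3p). With the list as scaling, miR-320-3p was at 0.92 in KO (edgeR adjusted p = 0.0194) and miR-484 at −0.85 (adjusted p = 0.0314). The levels per list count therefore depend on which list members hold most counts.

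miR-206-3p had 8.07 ± 2.39 per 10000 list counts in KO, 1.81 ± 1.01 in E518K and 8.06 ± 1.66 in WT. KO and WT overlapped (log2 change 0.01, 95% interval −1.54 to 1.57, adjusted p = 0.99), and E518K lay below both (−2.12 against WT, adjusted p = 0.034). This E518K value stands on 2, 5 and 2 counts.

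The remaining abundant members were not level on this scale. miR-143-3p had 613 ± 100 in KO, 395 ± 169 in E518K and 15081 ± 4238 in WT, and miR-142a-3p 7.16 ± 4.13 in KO, 54.7 ± 4.26 in E518K and 642 ± 322 in WT. miR-150-5p had 0.235 in KO, from its 2 counts, 135 ± 17.6 in E518K and 565 ± 79.9 in WT. WT was highest for each of the 3, and KO was lowest for miR-142a-3p and miR-150-5p. miR-1a-3p had 1.93 ± 2.14 in KO, 14.8 ± 6.99 in E518K and 79.8 ± 50.3 in WT. With this scaling, 0 members were higher and 5 lower in KO, and 0 higher and 6 lower in E518K, beside 3.56% of all tested miRNAs higher and 73.4% lower in KO, and 1.64% higher and 68.2% lower in E518K. The scaling moved the median of all tested miRNAs to −8.23 in KO and −2.90 in E518K.

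**Figure D3:**
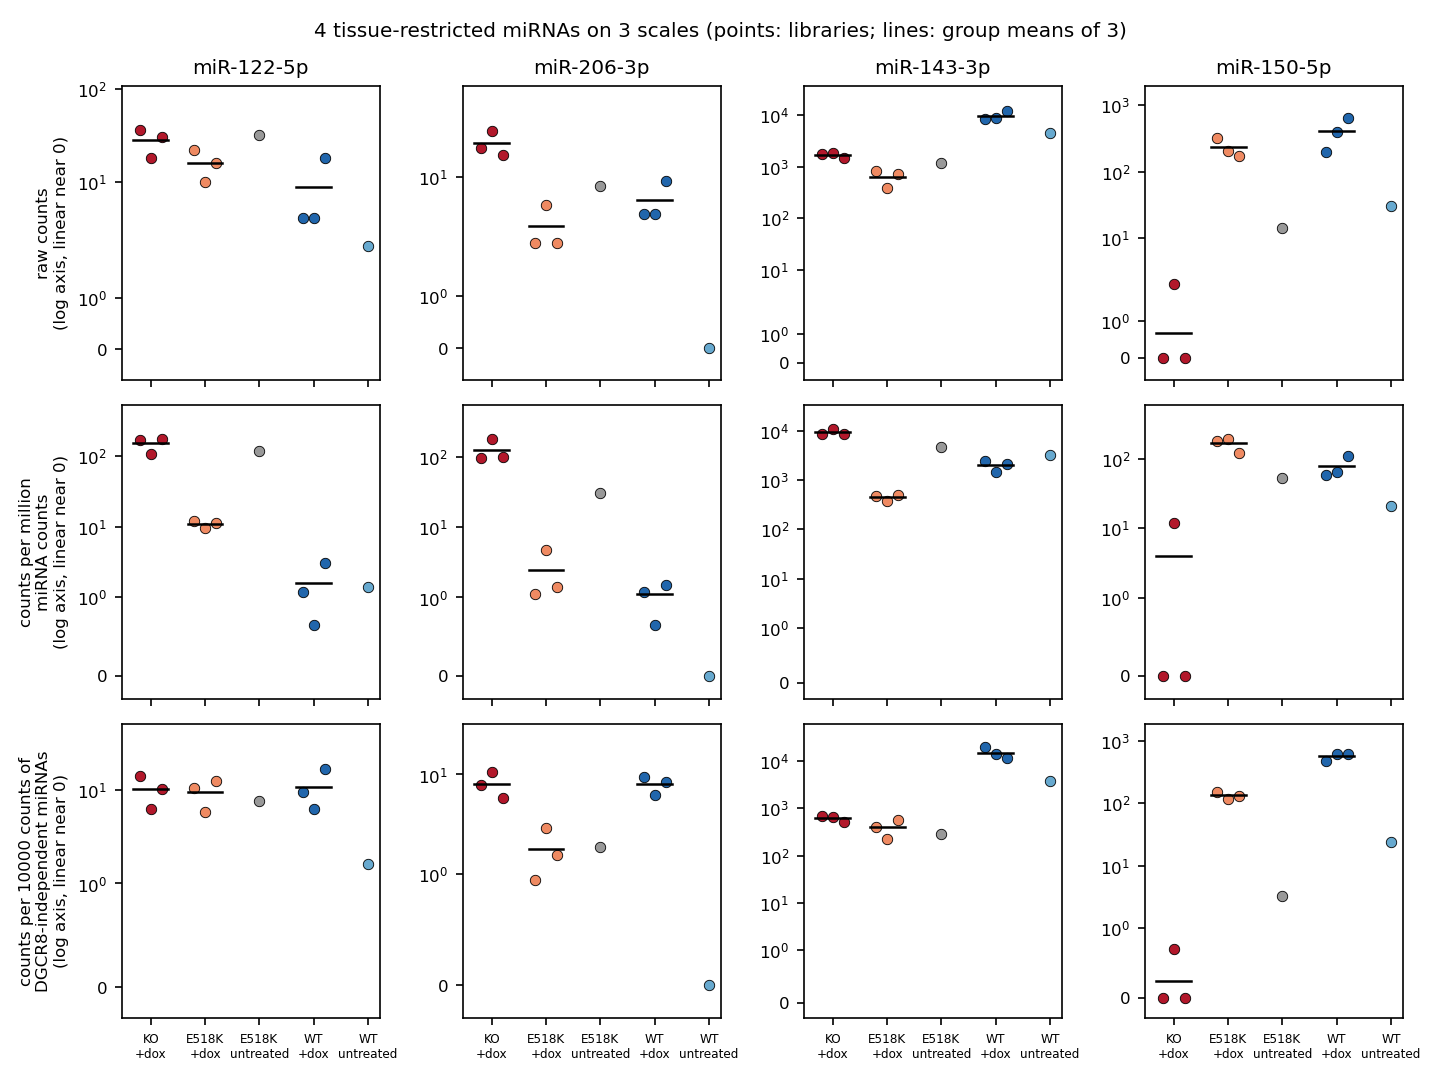
miR-122-5p, miR-206-3p, miR-143-3p and miR-150-5p (columns) in raw counts, in CPM and per 10000 counts of DGCR8-independent miRNAs (rows), on log axes that turn linear near 0; points are libraries and lines are means of 3. miR-122-5p goes from 94.1-fold higher in KO than in WT in the middle row to overlapping groups in the bottom row, while miR-150-5p is lowest in KO in every row.

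How far a member seemed raised thus depended on what the counts were divided by. In the authors' own unit, pRPM, whose totals are 85006 in KO, 683476 in E518K and 938495 in WT, miR-122-5p had 13.0 ± 3.28 in KO, 7.53 ± 0.944 in E518K and 1.52 ± 1.17 in WT. miR-206-3p had 10.7 ± 4.02 in KO, 1.66 ± 1.38 in E518K and 1.05 ± 0.409 in WT, and miR-143-3p 796 ± 115 in KO, 306 ± 49.6 in E518K and 1876 ± 487 in WT. KO was thus 8.52-fold above WT for miR-122-5p on this scale, 10.2-fold above it for miR-206-3p, and 2.36-fold below it for miR-143-3p. The WT means of miR-122-5p and miR-206-3p include clones 10 and 12, which were under the floor. A scaling changes only the library sizes and so shifts all members by nearly the same amount. The near-constant order of the members in the plot of fitted changes follows from this and is not a result. What differed was where the zero line fell among them. Which of these scalings gives the amount per cell was not tested, and fewer cells with these miRNAs and less miRNA per cell cannot be told apart in such bulk libraries.

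**Figure D4:**
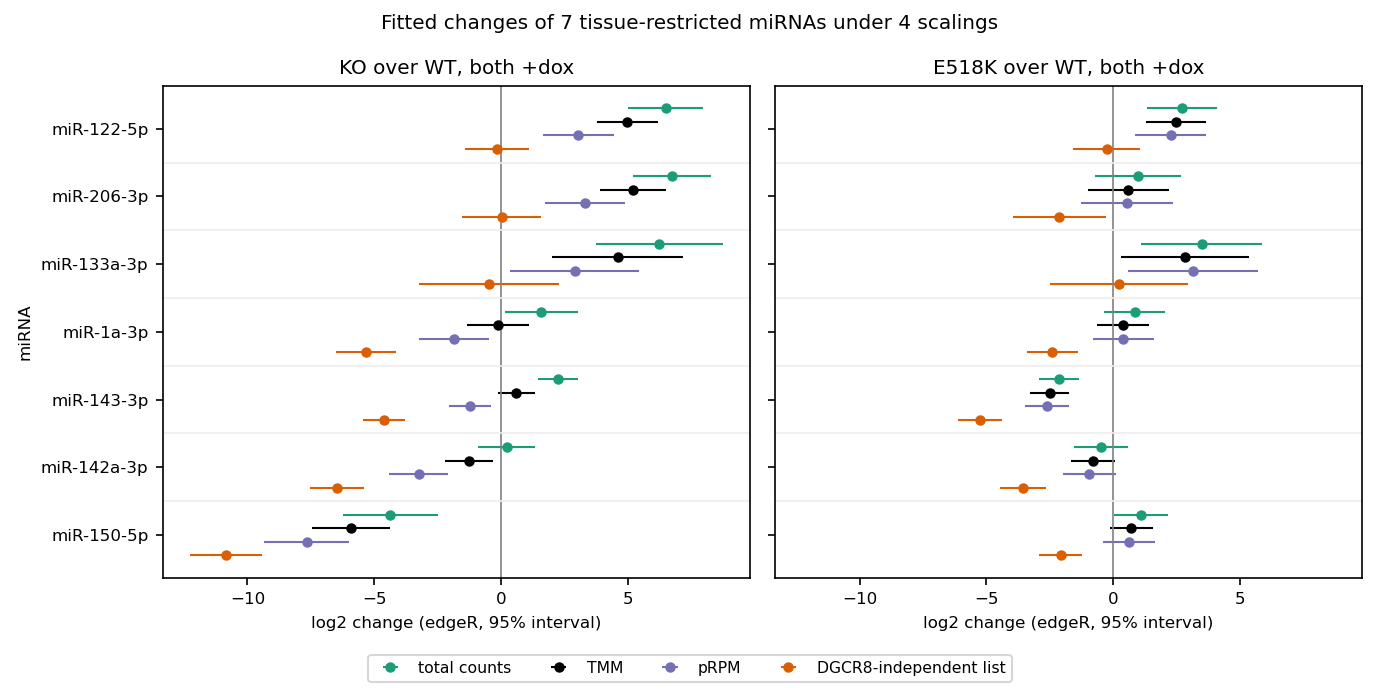
log2 changes with 95% intervals (edgeR) of 7 tested members in KO over WT (left) and E518K over WT (right), under 4 scalings (colours); miR-486a-5p is left out, since it is at 0 in KO and E518K. With the DGCR8-independent list as scaling, miR-122-5p lies at −0.16 in KO and −0.26 in E518K, and miR-150-5p is lowest in KO under each scaling, down to −10.85.

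The untreated libraries, 1 of each clone and without a test, bear on the same question, because the untreated E518K library had the miRNA total closest to those of the KO libraries. After doxycycline E518K clone 8 had 22 counts of miR-122-5p, or 12.2 CPM, against 32 counts and 121 CPM (95% interval 69.2 to 196) untreated. The induced library had 2 counts of miR-206-3p and 842 of miR-143-3p, against 8 and 1205 in the untreated one. Induced WT clone 10 had 4 counts of miR-122-5p, 4 of miR-206-3p and 8350 of miR-143-3p, against 2, 0 and 4640 untreated. The untreated E518K library thus resembled KO for miR-122-5p. For miR-206-3p, at 30.2 CPM (95% interval 8.24 to 77.4), and miR-143-3p, at 4556 CPM, its level lay between the KO and the WT libraries. For miR-150-5p it held 52.9 CPM, against 0, 12.0 and 0 in KO.

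miR-150-5p and miR-142a-3p had more counts after induction than untreated in both clones. The induced library of E518K clone 8 had 324 counts of miR-150-5p and 108 of miR-142a-3p, against 14 and 12 untreated. WT clone 10 had 199 and 326 counts induced, against 30 and 74 untreated. The miRNA totals were higher after induction too, as given above. In CPM miR-150-5p was at 180 in induced and 52.9 in untreated E518K, and at 58.6 in induced and 21.1 in untreated WT. Per 10000 counts of the DGCR8-independent list, miR-122-5p had 7.57 in untreated E518K, within the range of the induced groups, and 1.60 in untreated WT, below it and resting on 2 counts.

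The miRNAs whose share followed that of the 10 members most closely over the 11 libraries, out of 480 compared by the root mean square of the difference in centred log2 values, were miR-21a-5p (0.46), miR-455-5p (0.53), miR-99b-5p (0.57), miR-31-5p (0.82) and miR-532-5p (0.88). Since miR-143-3p makes up most of the sum, this is likeness to miR-143-3p. miR-21a-5p, an abundant miRNA of many differentiated cells, averaged 57975 CPM in KO, 4207 in E518K and 8532 in WT. The order of the groups (KO highest, WT next and E518K lowest) was that of the members' sum, which follows from its choice by likeness to that sum.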

How the data were processed

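Libraries were prepared from total RNA with a NEBNext Multiplex Small RNA kit, per the labels' protocols, and grouped by their titles. The authors deposited raw read counts per mature miRNA (whole numbers, with totals that differ between libraries) and values of these miRNAs in a scaled RPM unit named pRPM per the file headers. Of the deposited pRPM values 100% gave whole reads within 0.01 reads, equal to the counts, so the count test covers them. Each group's libraries share 1 pRPM total, of unstated origin. STAR, bedtools and GRCm38.p6 are named in the submitters' processing notes. Trimming, counting rule and strand: not given in the sources used here. The file said to hold piRNA counts was identical to that of the pRPM values and was left out.

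Tests used edgeR 4.0.16 in R 4.3.3: a robust quasi-likelihood fit over all 11 libraries (5 groups) with TMM scaling, after filterByExpr at a minimum count of 10 and minimum total of 15. Benjamini-Hochberg adjustment ran over 730 miRNAs, with a threshold of 0.05, and every adjusted p is from this test unless another tool is named. Each untreated group has 1 library, which adds only its own mean. P-values in KO may measure technical spread; replicates differed beyond counting noise (chi-square over degrees of freedom 24.3 to 557). DESeq2 1.42.0, other scalings, other filters and leaving out each replicate were alternatives, and the fit was tested on simulated counts. Binomial intervals (exact, 95%) used counts divided by 2, since 90.3% of counts from 1 to 40 were even, and intervals and floors cover counting error only. The members and lists were chosen with earlier results of these data known. Named miRNAs were all 10 members, the 3 most abundant of each comparison list, miR-320-3p and miR-484, and the 5 most like the members' sum. miR-143-5p, miR-145a-5p, miR-144-3p, miR-144-5p, miR-150-3p, miR-194-5p, the miRNAs listed as set by the floor, the rule for that and levels per 10000 DGCR8-independent counts were added after their values were seen.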

Additional observations from a re-analysis of the deposited data

How the results depend on the processing

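The count of miRNAs called in KO against WT (645) stayed within 1.5 times under all 13 alternatives (556 to 615 leaving out 1 library), as did that of the members (6; 4 to 6 leaving out 1 library). In E518K the count over all miRNAs (464) was 360 to 418 leaving out 1 library, and that of the members (4) was 2 with DESeq2 and 2 to 3 leaving out 1 library, where up to 1 member fewer passed the filter. Of the calls over all miRNAs in KO, 34.0% were higher with TMM, 43.4% with total counts, 4.63% with the DGCR8-independent list and 2.69% with the rest of 1000000 pRPM outside the miRNAs as library size. In E518K these shares were 44.4% with TMM, 51.2% with total counts, 2.35% with the list, 2.75% with the rest, and 60.4% without WT clone 16. Log2 changes turned round in KO with total counts for miR-1a-3p (1.59), miR-142a-3p (0.22) and miR-145a-5p (0.22), with pRPM for miR-143-3p (−1.24), with the list for miR-122-5p (−0.16), miR-133a-3p (−0.47), miR-143-3p (−4.62) and miR-484 (−0.85), and with the rest for miR-122-5p (−0.82), miR-133a-3p (−0.76), miR-206-3p (−0.54), miR-143-3p (−5.13) and miR-484 (−1.39). In E518K they turned with the list for miR-122-5p (−0.26), miR-1a-3p (−2.40), miR-206-3p (−2.12), miR-150-5p (−2.07), miR-142a-5p (−1.76) and miR-150-3p (−1.21), and with the rest for miR-122-5p (−0.072), miR-1a-3p (−1.96), miR-206-3p (−1.77), miR-150-5p (−1.74), miR-142a-5p (−1.49) and miR-150-3p (−0.90). Leaving out 1 library, values that crossed 0 ran in KO from −2.58 to 7.38 for miR-133a-3p and from −0.81 to 1.07 for miR-1a-3p, and in E518K from −2.50 to 5.03 for miR-133a-3p, from −0.034 to 1.26 for miR-206-3p and from −1.28 to 0.22 for miR-142a-3p. With DESeq2 the miR-133a-3p calls were lost in KO (adjusted p = 0.171) and E518K (0.404). The members' summed share leaving out 1 library was 0.894% to 1.03% in KO, 0.0697% to 0.0727% in E518K and 0.197% to 0.251% in WT. Without miR-143-3p it was 0.0446% in KO, 0.0267% in E518K and 0.0189% in WT, and over a total without the cluster of miR-290 to miR-295 it was 0.101% in E518K and 0.490% in WT. The causes of these changes were not tested. Depth limits the small members: in KO a miRNA under the floor of 28.7 to 36.0 CPM is not detectable. No paired analysis was possible because the groups compared share fewer than 2 clone numbers.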
